A study of Mus with 438 samples.

Results

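The nuclear genes of the mitochondrial respiratory chain were followed through cone photoreceptors of the mouse retina. Members were all genes of the deposited table whose symbols begin with Nduf, Sdha to Sdhd, Uqcr, Cox4 to Cox8 or Atp5, which gave 91 of 10390 genes. They hold 75 subunits of the 5 complexes: 36 of complex I, 4 of complex II, 8 of complex III, 12 of complex IV (with Ndufa4) and 15 of complex V. The other members are 13 assembly or other factors, the Cox7a2 relative Cox7a2l, and the pseudogenes Atp5c1-ps and Uqcrh-ps1, whose reads cannot be told with certainty from those of their parent genes. None of the 13 genes encoded in mitochondrial DNA was analysed here, and neither were Cox4i2, Cox6a2, Cox7a1, Cox7b2, Cox8b, Cox8c and Ndufa4l2.

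The respiratory chain sits in the inner mitochondrial membrane. Complex I takes electrons from NADH and complex II from succinate, complex III passes them to cytochrome c, complex IV hands them to oxygen, and complex V (ATP synthase) uses the proton gradient to make ATP. Complex II belongs also to the citric acid cycle, pumps no protons, and is the complex whose subunits are all encoded in the nucleus. Photoreceptors use much ATP for ion pumping and for phototransduction, and they pack mitochondria into the ellipsoid of the inner segment, which forms in the first weeks after birth.

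The cells were picked singly under the microscope from dissociated superior (sup) or inferior (inf) pieces of retina, and each library holds the RNA of 1 cell. Control cones were Trb2Cre-het:Ai6, in which Cre at the gene of the thyroid hormone receptor Thrb turns on a fluorescent reporter, so controls carried a Cre allele too. They came from postnatal day 2 (P2), with 26 sup and 30 inf cells, from P8 and P21, with 24 of each zone at either age, from P60, with 26 sup and 21 inf cells, and from 2 months (2m), with 53 sup and 50 inf cells. Cones without the receptor (Trb2Cre-KO:Ai6) were taken at 2m (50 and 48 cells), as were 29 rods labelled with tgNrl:gfp. All were C57BL/6, and the question of the study is how the receptor shapes cone diversity. The labels name no animal, so the cells of 1 age, zone and genotype count as 1 sample, and an SD over cells is a spread between cells, not an error of the group. Fits across ages or zones therefore rest on group means, and comparisons of a single group with another carry no test.

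Values are CPM, reads of a gene scaled to the total reads of its library, so they give a gene's share of a cell's reads; total RNA per cell was not measured, and a lower share cannot be told apart from more RNA of other genes. Differences are log2 of (mean CPM + 1) unless stated, and levels are not compared between genes, since the values are not per length. Depth was 8.98e+05 to 3.26e+07 reads per library, with group means of 1.79e+06 to 3.37e+06 at P2 to P60 and of 1.25e+07 to 1.83e+07 in the 2m collection, which was sequenced more deeply. Summed over the 12 cone markers, means were 12037 to 110747 CPM in cone groups and 167 CPM in rods. Summed over the 11 rod markers measured of 12, they were 1490 and 1598 CPM in P2 cones, 12475 to 22860 CPM in all later cone groups and 144926 CPM in rods. Over 7 of 8 Muller glia markers the cone groups had 376 to 1280 CPM and rods 2889 CPM. The 1 bipolar cell marker measured of 5 had at most 149 CPM. The 1 amacrine and ganglion cell marker measured of 5 had 7.45 to 105 CPM in cone groups and 1.64 CPM in rods. Markers listed for microglia, for blood and endothelium and for pigment epithelium were not analysed here, so no value bears on those cells. In 2m controls Thrb averaged 213 CPM in sup and 170 CPM in inf cones, where knockout cones had 43.2 and 33.9 CPM. M opsin (Opn1mw) averaged 9599 and 3414 CPM in those controls, against 6.63 and 1.47 CPM. Which part of Thrb these reads cover is not given in the sources used here.

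The read share (CPM) of all 75 subunits together was highest in P8 cones, in both zones, though in inf cones only narrowly above 2m. Summed over the 75 subunits, the mean was 11644 CPM (SD over cells 2446) in P2 sup cones and 16373 CPM (SD 3309) in P8 sup cones. Inf cones had 10101 CPM (SD 1727) at the earlier age and 13441 CPM (SD 2715) at the later. The ratio of P8 to P2 was thus 1.41 in sup and 1.33 in inf cones. Single cells overlapped: P2 sup cells lay between 7333 and 16271 CPM and P8 sup cells between 10853 and 24253 CPM. After P8 the sum was lower, at 10687 (sup) and 9835 (inf) CPM in P21 cones and 11325 and 10723 CPM in P60 cones. In the more deeply sequenced 2m controls it was 13117 and 12972 CPM. The inf order of P8 and 2m depends on the scale. Rescaling by the median of ratios divides the means by 1.21 in P8 inf and 1.01 in 2m inf cones, which puts 2m above P8 there.

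**Figure D1:**
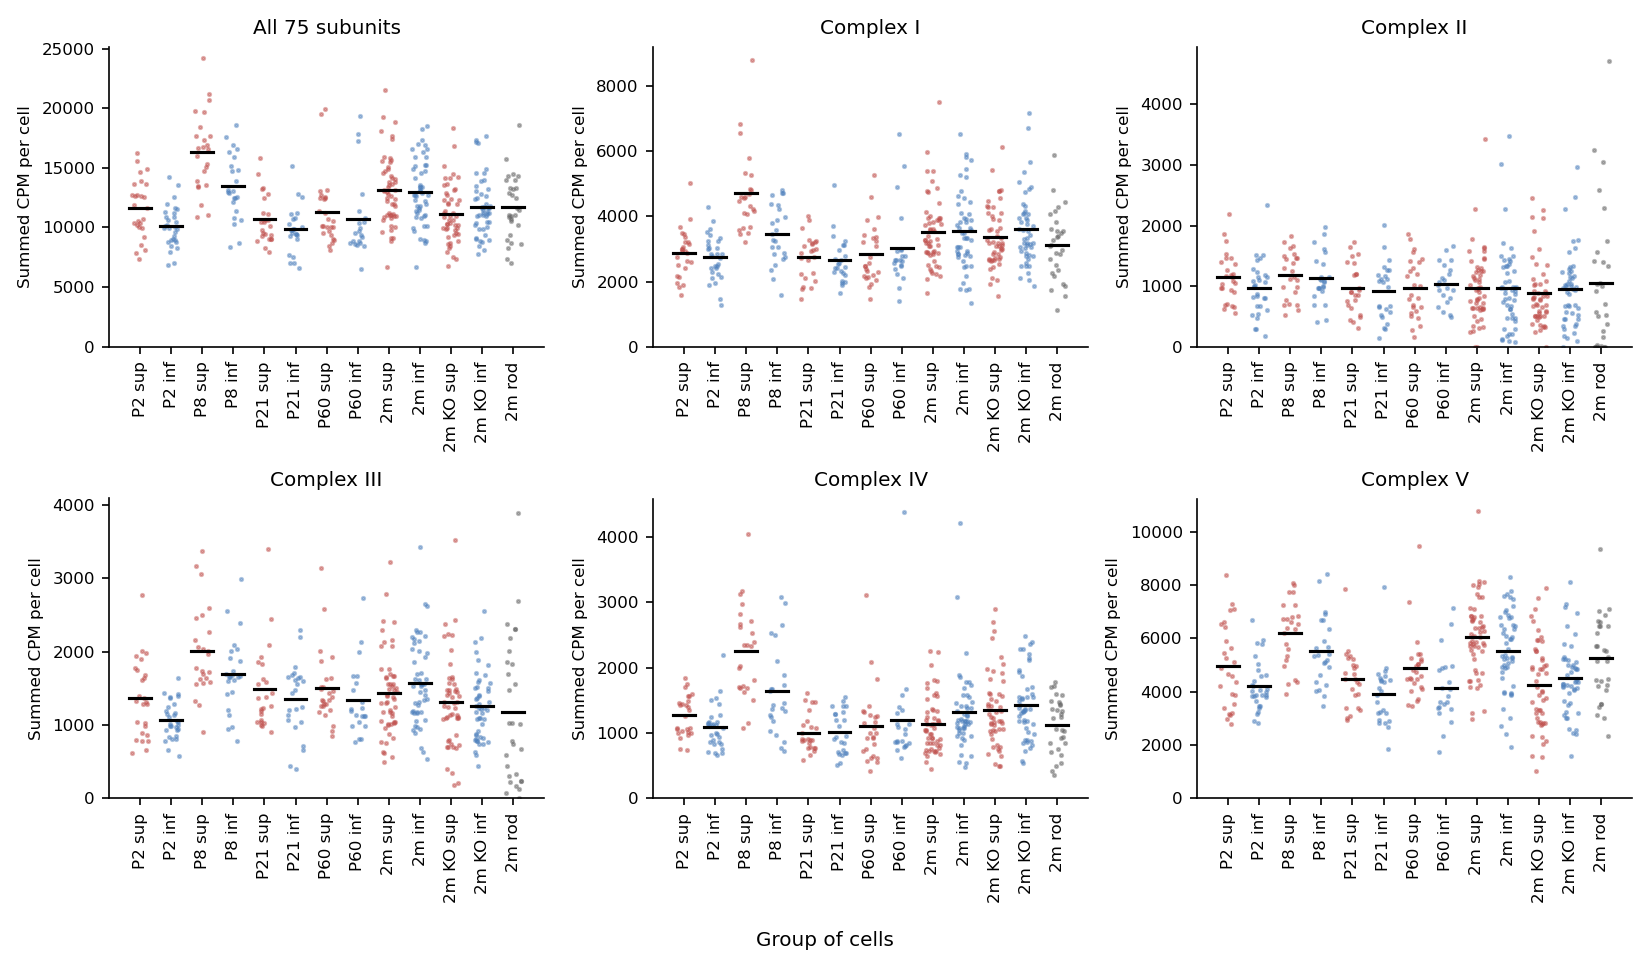
Summed CPM of the 75 subunits and of each complex in every cell (points; red, superior; blue, inferior; grey, rods) with the group mean (black bar), by group of cells along the horizontal axis. The P8 sup mean of 16373 CPM is the highest of the 13 groups for all subunits together, while complex II stays between 879.5 and 1185 CPM in the cone groups.

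The higher level at P8 was spread over most subunits. Of the 75, 63 were higher at P8 than at P2 in both zones (84%) and 1 was lower in both, where 25% of all genes were higher and 39.5% lower in both zones. The median subunit difference was 0.73 in sup and 0.50 in inf cones, against -0.15 and -0.20 for all genes. Among the 5 control ages, 57 subunits in sup and 39 in inf cones had their highest mean at P8 (all genes, 1915 and 1914 of 10390). At 2m it was 12 in sup and 29 in inf cones (all genes, 1544 and 1685). In both zones at once, 36 of 75 subunits (48%) had their highest mean at P8, against 6.04% of all genes. The same held for 5 of 75 cytosolic ribosomal protein genes (6.67%) and 4 of 34 proteasome subunit genes (11.8%). With group means rescaled by the median of ratios the count was 25 subunits (33.3%, against 4.86% of all genes), and without the 2m collection it was 54 (72%, against 8.12%). The summed rod markers also differed between these ages, from 1490 and 1598 CPM at P2 to 13877 (sup) and 13668 (inf) CPM at P8, and their part in the P8 values was not tested.

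By complex, P8 was the highest age in both zones for 6 of 8 subunits of complex III and 8 of 12 of complex IV, against 16 of 36 in complex I, 6 of 15 in complex V and 0 of 4 in complex II. Summed over complex IV, P8 was 1.78 (sup) and 1.51 (inf) times P2. For complex I the ratios were 1.64 and 1.26, for complex III 1.47 and 1.59, for complex V 1.25 and 1.30, and for complex II 1.03 and 1.17. In inf cones alone, complex I had 16 subunits highest at P8 and 16 at 2m, and complex V 7 and 7. The inf sums of these 2 complexes were no lower at 2m than at P8.

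**Figure D2:**
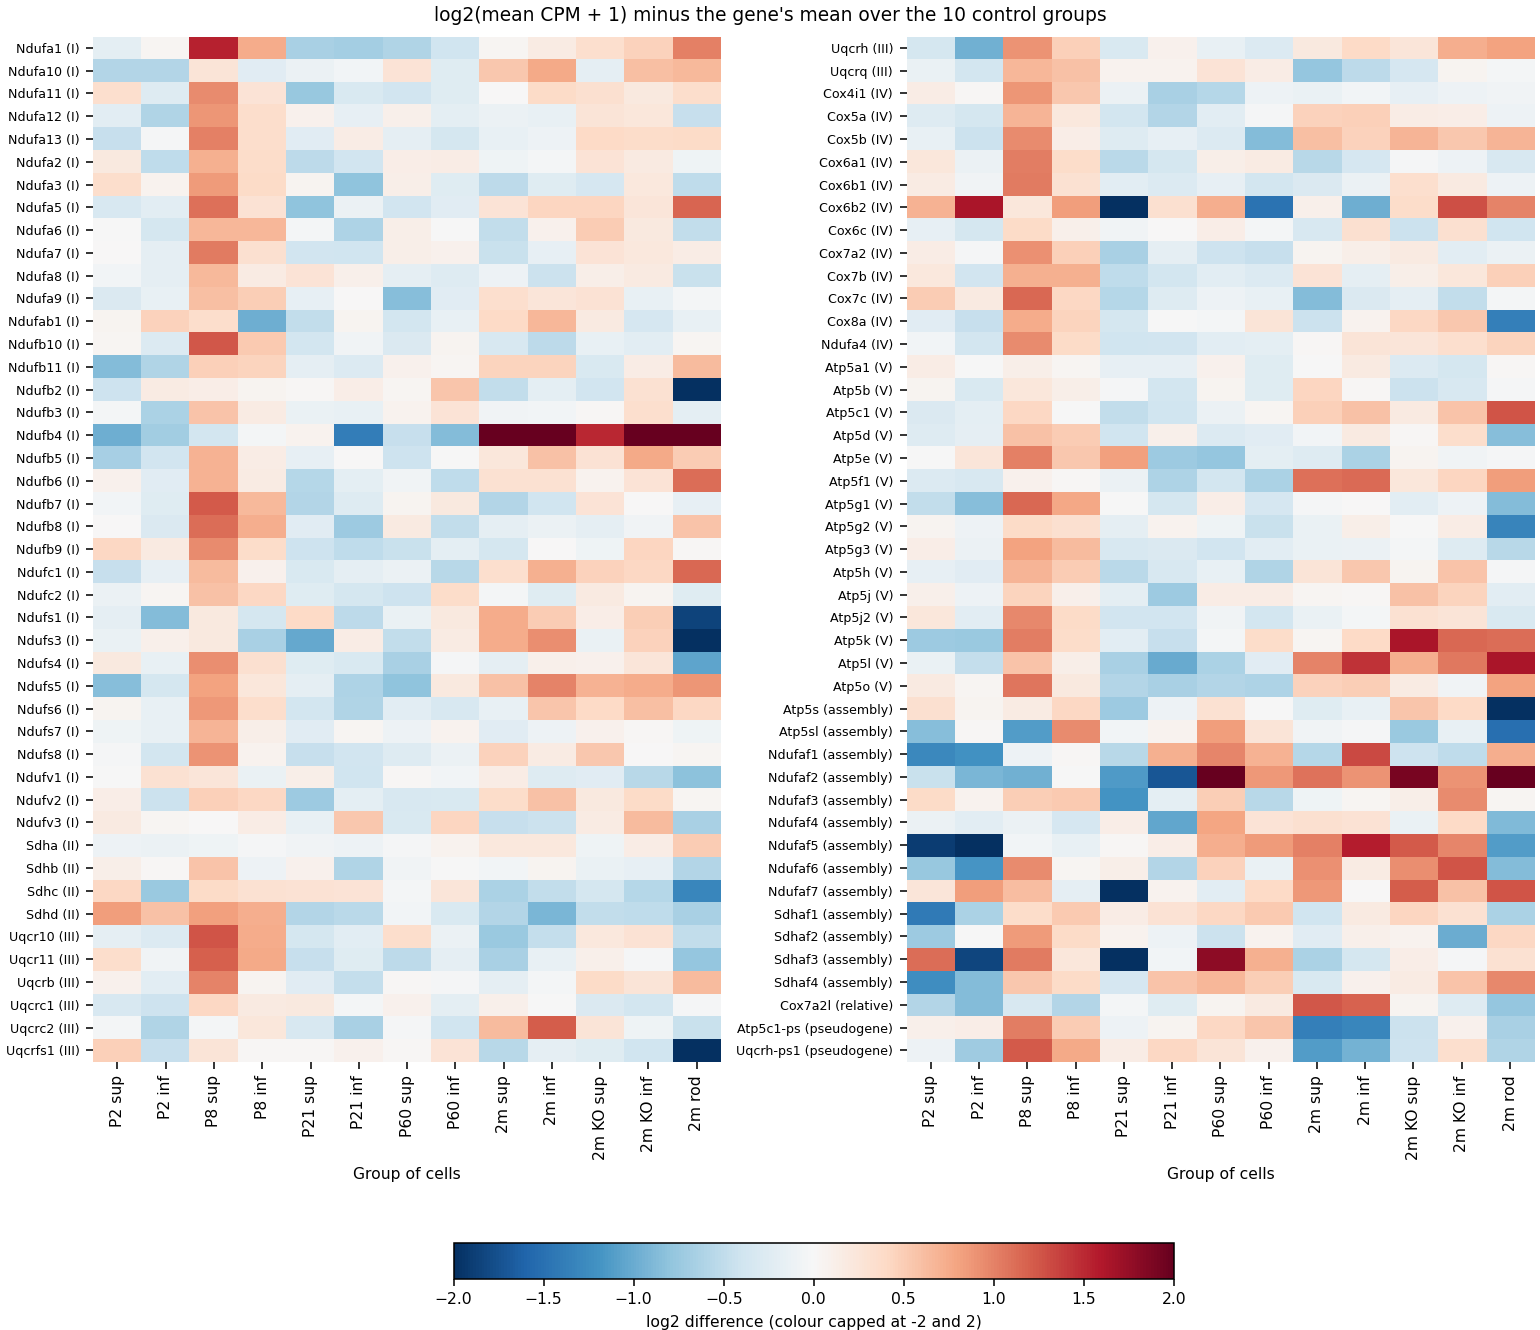
Members (rows, 90 of the 91, each with its complex or class) in the 13 groups of cells (columns), as log2(mean CPM + 1) minus the gene's mean over the 10 control groups; red is higher, blue is lower, and the colour stops at -2 and 2. The P8 columns are red for most subunits, and Ndufb4 is red in the 2m columns, where its means were 27.8 to 70.0 CPM.

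A size rule asked for a 2-fold or larger difference of the same sign in sup and in inf cones, with 10 CPM or more in the higher group of each. By it, 12 members (13.2%) were higher at P8 than at P2 and 0 were lower. Over all genes, 4.42% were higher and 8.99% lower by that rule (13.4% either way). The subunits among them were Ndufb8 and Ndufb11 of complex I, Uqcrh and Uqcr10 of complex III, and Atp5g1 and Atp5k of complex V. The others were the assembly factors Ndufaf1, Ndufaf5, Ndufaf6, Sdhaf1 and Sdhaf4 and the pseudogene Uqcrh-ps1.

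Atp5g1 (chr11:96072793-96075694, GRCm38.p6) encodes a precursor of the c subunit, which forms the rotating ring of ATP synthase. In sup cones its cells ranged from 0 through a median of 78.6 to 338 CPM at P2 and from 113 through 354 to 447 CPM at P8. In inf cones they ranged from 0.564 through 60.7 to 238 CPM at P2 and from 117 through 213 to 673 CPM at P8. The lowest P8 cells thus lay above the P2 medians, although the groups overlapped, and the mean difference was 1.64 in both zones. The other genes for the same ring, Atp5g2 and Atp5g3, differed by 0.32 and 0.68 in sup and by 0.42 and 0.74 in inf cones.

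Ndufb8 (chr19:44548571-44555442), an accessory subunit of the membrane arm of complex I, went from a sup mean of 174 CPM at P2 to one of 377 CPM at P8, and from an inf mean of 141 CPM to one of 286 CPM. Its sup cells spanned 62.8 to 627 CPM at P2 and 133 to 939 CPM at P8, so the groups overlapped. The P8 means were the highest of the 5 ages, with 147 and 104 CPM at P21. Uqcr10, a small subunit of complex III, went from 45.1 and 42.1 CPM to 124 and 86.1 CPM, and was at 39.9 and 44.4 CPM at P21.

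Among the catalytic core subunits of complex I, Ndufs7 and Ndufs8, which carry iron-sulfur clusters, were highest in sup cones at P8, with 169 and 141 CPM, and differed from P2 by 0.76 and 0.92 in sup and by 0.26 and 0.44 in inf cones. Ndufv2 differed by 0.35 and 0.84. Ndufv1, which binds NADH, was higher by 0.25 in sup cones and lower by 0.43 in inf cones (-0.43), so its zones went opposite ways. Ndufs3 did the same, with 0.33 and -0.74. Ndufs1, the largest core subunit, differed by 0.38 and 0.52, but its highest mean was not at P8: 2m cones had 424 (sup) and 360 (inf) CPM.

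Among the 8 subunits of complex III, Uqcrc1, a core protein, went from 615 to 1020 CPM in sup and from 577 to 867 CPM in inf cones, a difference of 0.73 and 0.59. The Rieske iron-sulfur protein Uqcrfs1 had no such pattern, with -0.22 in sup and 0.48 in inf cones. Nor had the core protein Uqcrc2, which went from 154 to 152 CPM in sup and from 104 to 184 CPM in inf cones. In complex IV, Cox4i1 went from 294 and 269 CPM to 490 and 385 CPM, Cox5a differed by 0.94 and 0.56, Cox5b by 1.09 and 0.57, Cox6c by 0.56 and 0.45 and Cox8a by 0.98 and 0.90. The testis-type isoform Cox6b2 was the exception of this complex, lower by 0.47 (-0.47) and 0.80 (-0.80), with a median of 0 CPM in every cone group. Its partner Cox6b1 differed by 0.87 and 0.37.

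Complex V held members of both kinds. Atp5a1 and Atp5b, the alpha and beta subunits of its catalytic head, differed by -0.04 and 0.05 and by 0.18 and 0.42 between P2 and P8. Atp5c1, the gamma subunit that turns in that head, differed by 0.71 and 0.18, and Atp5k, a small membrane subunit, by 1.74 and 1.10 at means of no more than 22.1 CPM.

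Complex II, the smallest set, showed little of this, apart from Sdhc in inf cones and Sdhb in sup cones. Sdha, the subunit that oxidises succinate, had means of 531 to 669 CPM in all 10 control groups. Sdhb, the iron-sulfur subunit, had 66.2 to 150 CPM. Between P2 and P8 it went from 110 to 150 CPM in sup and from 103 to 94.1 CPM in inf cones. Sdhc, a membrane anchor, was at 104 CPM in P2 inf and 217 CPM in P8 inf cones, against 234 and 228 CPM in sup cones. It had 171 to 213 CPM at P21 and P60, and 112 (sup) and 124 (inf) CPM in 2m controls.

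At P21 the shares were lower than at P8. The median subunit difference was -1.03 in sup and -0.58 in inf cones, against -0.12 and -0.20 for all genes, and 66 of 75 subunits (88%) were lower in both zones, against 35.6% of all genes. None of the 75 was higher in both, against 22% of all genes. After rescaling, which brings the median of all genes to 0.00, 57 of 75 were lower in both zones, against 27.9% of all genes. All 12 subunits of complex IV and all 15 of complex V were lower in both zones at P21, also 11 and 14 after rescaling. The cytosolic ribosomal protein genes were lower as well, with 59 of 75 in both zones and medians of -1.19 and -0.88, so the respiratory chain did not stand alone here. By the size rule 8 members (8.79%) were lower and 0 higher, near the 6.16% of all genes that were lower (3.83% were higher, 9.99% either way). These were Ndufb8, Ndufa1, Sdhd, Uqcr11, Cox4i1, Cox7b, Atp5g1 and Atp5l. Only 3 of the 8 met the rule after rescaling.

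Sdhd (chr9:50596340-50603849), a membrane anchor of complex II, had higher means at both P2 and P8 than at any later age. Cox7c and Uqcr11 did so too in each zone, with their highest means at P8. For Sdhd, sup means were 268 (P2) and 265 CPM (P8), inf means 226 and 249 CPM, and all later control groups had 78.8 to 144 CPM. The share of cells over 1 CPM was 83.3% to 88.5% at P2 and P8, 54.2% (sup) and 50% (inf) at P21, and 55 to 77% at P60 and 2m. The cells overlapped, since cells at 0 occurred in every group and P21 cells reached 412 CPM. Ndufa1, a small membrane subunit of complex I, was at 52.4 and 29.9 CPM at P8 and 10.7 and 10.6 CPM at P21, a difference of -2.19 and -1.42.

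**Figure D3:**
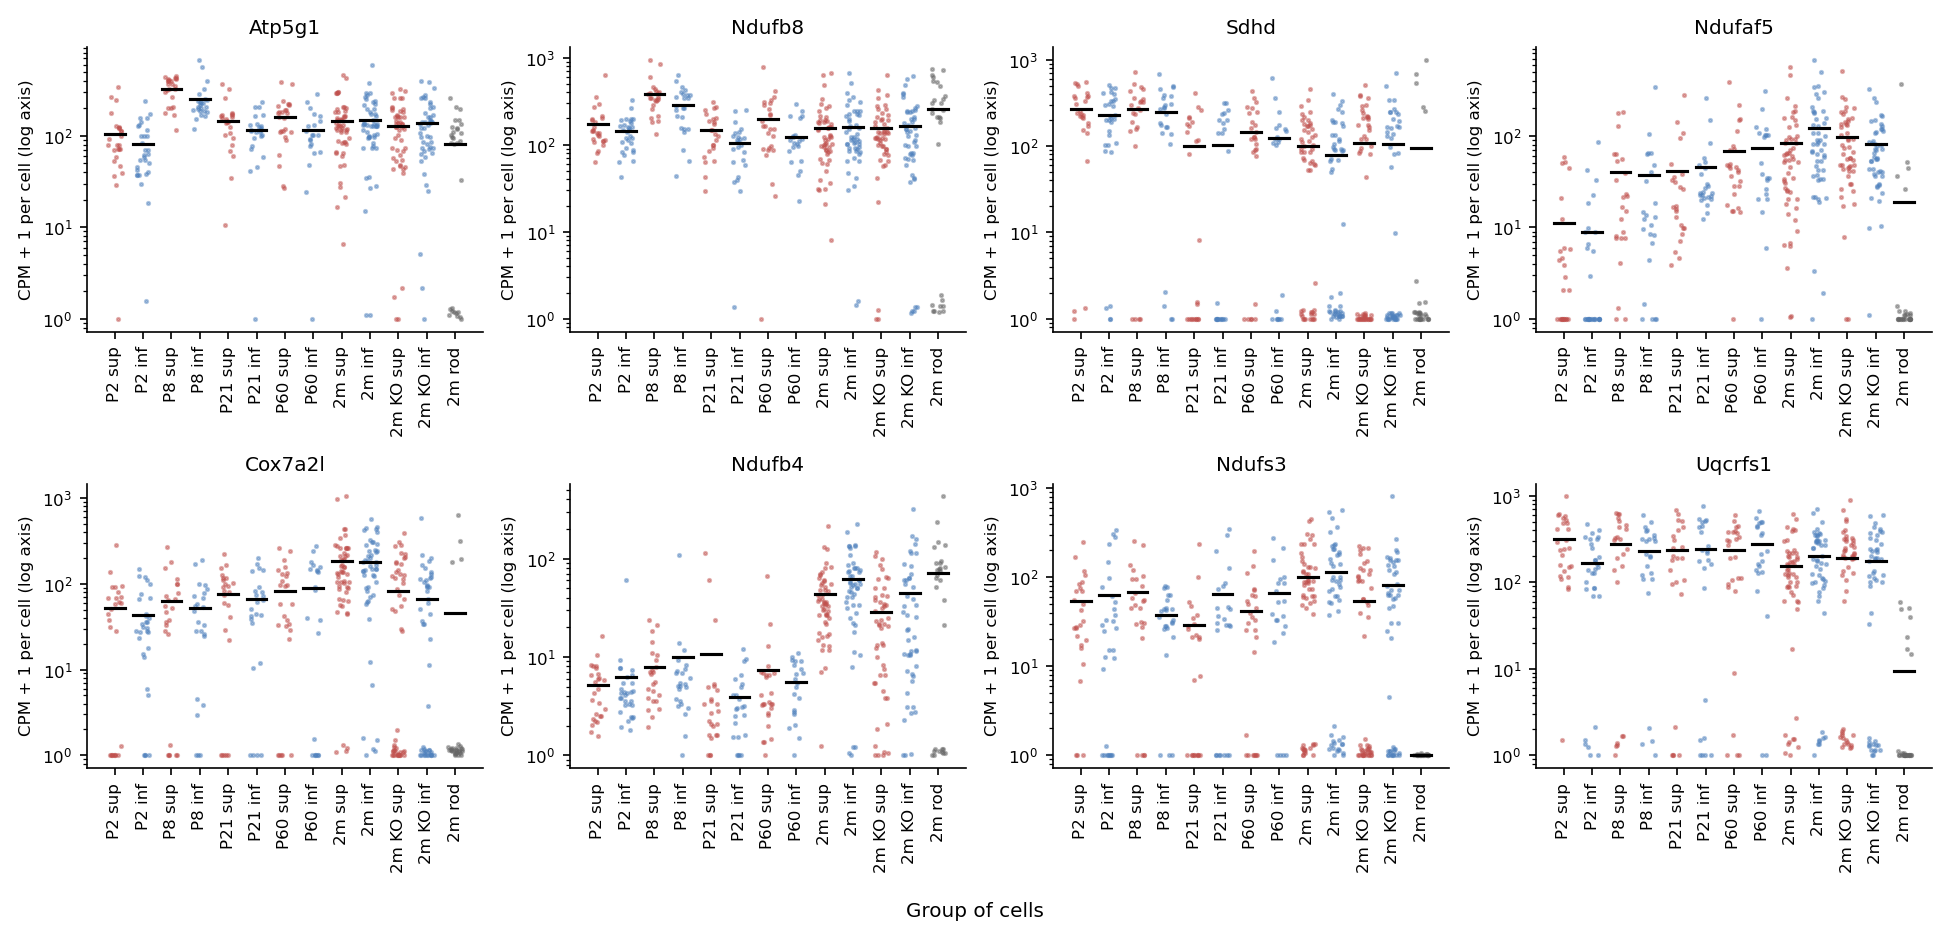
CPM + 1 in every cell on a log axis (points; red, superior; blue, inferior; grey, rods) with the group mean (black bar) for 8 members, by group of cells. Atp5g1 and Ndufb8 are highest at P8, Sdhd has more cells near 0 from P21 on, Ndufaf5 has its lowest means at P2 and in rods, and Ndufs3 is at 0 or close to it in all 29 rods.

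Between P21 and P60 the subunits were close together, with medians of 0.14 and 0.12, and 37 were higher and 8 lower in both zones (all genes, 27.1% and 24.8%). Ndufaf2, an assembly factor of complex I, was the sole member past the size rule (1.1%, against 2.98% of all genes higher, 3.54% lower and 6.53% either way). Its means went from 3.62 and 2.07 CPM to 49.6 and 17.3 CPM, but its median cell stood at 0 CPM in these groups. With values averaged as logs over cells it did not meet the rule.

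P2 and P8 together were compared with P21, P60 and 2m by limma on 5 collection values, each the mean of both zones. Over all genes 19 of 10136 were called (0.187%; adjusted p below 0.05), and the median gene differed by -0.33, or by -0.07 after rescaling. Of 90 members tested 0 were called by limma, 0 by edgeR and 0 by DESeq2 on recovered reads, and 4 had an unadjusted limma p below 0.05. These were Sdhd (-1.24, SE 0.34, limma adjusted p = 0.168), Ndufaf5 (1.80, SE 0.64, adjusted p = 0.250), Ndufb9 (-0.80, SE 0.35, adjusted p = 0.331) and Cox7c (-0.93, SE 0.41, adjusted p = 0.335). With logs averaged over cells, Sdhd was called by limma (-2.44, adjusted p = 0.0476). P8 and P2 share a class in this fit, so a level that is high at P8 alone counts as spread.

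Ndufaf5, an assembly factor that modifies a core subunit of complex I, was lowest at P2 and highest at 2m. Its means were 10.1 (sup) and 7.94 (inf) CPM at P2, 38.8 and 36.1 at P8, 40.8 and 44.3 at P21, 67.5 and 73.6 at P60, and 82.4 and 121 CPM at 2m. Of P2 cells, 57.7% (sup) and 40% (inf) were over 1 CPM, and 96 to 100% of cells were so in the control groups from P21 on, apart from 95.2% in P60 inf cones. The order of the control ages was the same in both zones, and the cells of neighbouring ages overlapped. Among all 13 factors the median difference between the early and later ages was 0.40, with 8 of 13 higher later, against -0.25 for the subunits. Only 1 factor, Sdhaf2, was highest at P8 in both zones.

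No member passed the test of zone. With limma on the 10 control group means and collection as a block, 0 of 10136 genes were called (0%; 710 with an unadjusted p below 0.05; edgeR 0, DESeq2 240), and 0 of 90 members. Atp5b had the smallest p among the members, higher in sup cones by 0.30 (SE 0.08, limma adjusted p = 0.628) and higher in 5 of 5 collections. Its means were 2489 against 1958 CPM at P2, 2824 against 2620 at P8, 2362 against 1868 at P21, 2513 against 2046 at P60 and 3252 against 2459 CPM at 2m. In each collection the cells of both zones overlapped, as at P21, where sup cells lay between 1543 and 4404 CPM and inf cells between 623 and 3574 CPM. In knockout cones the means were 1792 (sup) and 1924 (inf) CPM, a difference of -0.10. Of the 75 subunits 5 were higher in sup cones in 5 of 5 collections (Atp5b, Atp5j, Uqcrc1, Ndufa8 and Ndufa12) and 0 were lower in all, against 4.88% and 2.38% of all genes.

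The zone difference of the subunits was positive at P2 and P8 and near or below 0 later, on group means. In P2 cones 56 of 75 subunits were higher in sup cones (median 0.19), and in P8 cones 69 of 75 (median 0.44), where 49.4% and 52.2% of all genes were. In P21 cones 34 of 75 were higher (median -0.02), in P60 cones 37 (median -0.01) and in 2m controls 18 (median -0.14), against 54%, 55.8% and 55.9% of all genes. After rescaling, the counts were 56, 63, 23, 24 and 12. With logs averaged over cells the P21 and 2m medians were 0.14 each, so the later sign depends on the averaging. By complex, the medians of complexes II (0.02) and V (0.06) at P21 and of complexes III (0.12), IV (0.05) and V (0.03) at P60 were above 0. Knockout cones had 38 of 75 (median 0.01; all genes 50.4%). A pattern of higher in sup at P2 and P8 and lower at P21, P60 and 2m held for 11 subunits (14.7%), against 2.94% of all genes. The ribosomal protein genes went with the subunits at P2 and P8, with 56 and 62 of 75 higher in sup cones.

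Complex I differed most at P8, with 34 of 36 subunits higher in sup cones and a median of 0.53. In complex V all 15 were higher in sup cones at P8, with a median of 0.35, and 12 were after rescaling. Mean depth at P8 was 3.04e+06 reads in sup and 2.16e+06 reads in inf cones. Within P8 inf cones the summed subunits went with depth (Spearman rho 0.73 over 24 cells, Pearson r 0.67) and within P8 sup cones they did not (rho -0.14, 24 cells). The part of depth in the zone difference was not tested. A limma fit on the 5 zone differences, early against later collections, had 0 genes called of 10136 (0%; 508 with an unadjusted p below 0.05), 0 of them members. The median of the subunits in that fit was -0.34, against 0.13 for all genes. Atp5sl was the member with an unadjusted p below 0.05 (1.61, SE 0.60, limma adjusted p = 0.900).

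**Figure D4:**
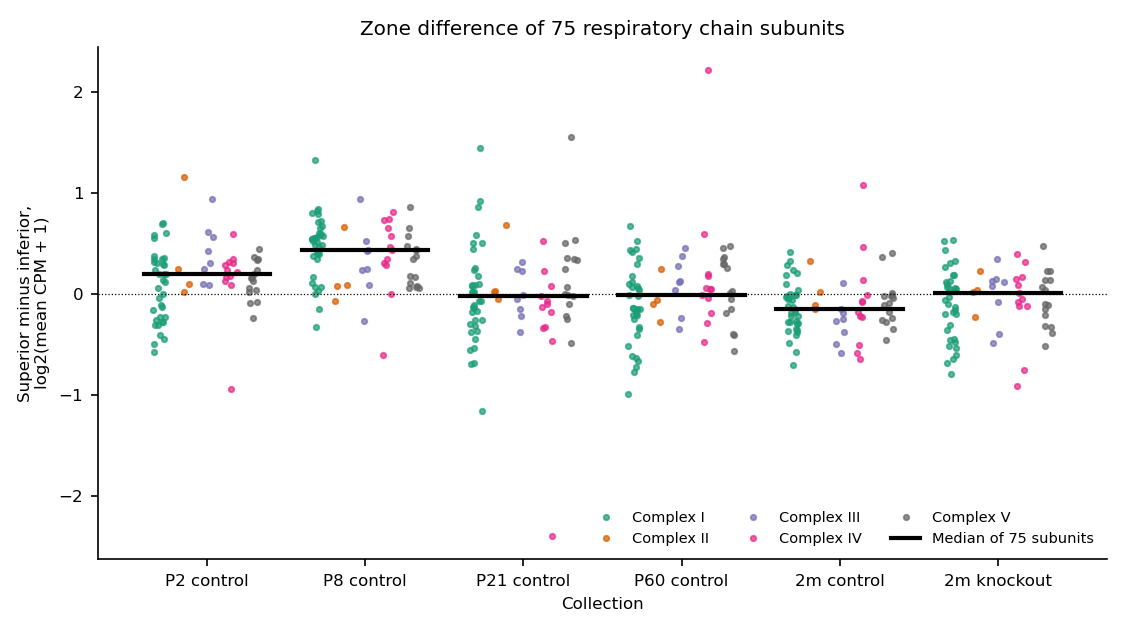
Difference between superior and inferior cones, as log2(mean CPM + 1), for each of the 75 subunits (points, coloured by complex) in the 5 control collections and the knockout, with the median (bar). The median is 0.44 in P8 cones and -0.14 in 2m controls, and single subunits scatter on both sides of 0 in every collection.

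In cones without the receptor, most respiratory chain genes lay within 2-fold of controls of their age. The median subunit differed from 2m controls by 0.12 in sup and 0.05 in inf cones, while the sum was 0.85 and 0.91 times the control sum, at 11169 and 11743 CPM. Against P60 controls the sum was 0.99 and 1.10 times the control. In both zones 38 of 75 subunits were higher and 24 lower, against 31.1% and 26.6% of all genes. No subunit met the size rule, and 1 member of 91 did (1.1%, against 3.38% of all genes higher, 2.76% lower and 6.14% either way). That member was Cox7a2l, the relative of Cox7a2.

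Cox7a2l cells ranged from 0.103 through a median of 134 to 1041 CPM in 2m sup controls and from 0 through 38.1 to 394 CPM in sup knockout cones. In inf cones they ranged from 0 through 148 to 574 CPM in controls and from 0 through 32.8 to 580 CPM in the knockout. The groups overlapped, and the mean difference was -1.19 in sup and -1.43 in inf cones. P60 controls, of nearly the same age, had means of 80.7 and 88.2 CPM, close to the 81 and 65.0 CPM of the knockout, so the difference did not hold against them.

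The complex V sum of the knockout was 0.70 (sup) and 0.81 (inf) times that of 2m controls, and 0.87 and 1.09 times that of P60 controls, so in inf cones the direction turned with the control set. For complex III the ratios were 0.91 and 0.79 to 2m and 0.87 and 0.94 to P60 controls. Atp5b, at 1792 (sup) and 1924 (inf) CPM in the knockout, was below both control sets in both zones, by less than 2-fold. Atp5a1 differed by -0.27 and -0.52 from 2m controls. Atp5f1 had 212 and 245 CPM in the knockout, below 2m controls (389 and 401 CPM) and above P60 controls (140 and 117 CPM). Uqcrc2, a core protein of complex III, differed by -0.37 and -1.30 from 2m controls and by 0.28 and 0.32 from P60 controls, so its direction turned too. In the other direction, Atp5k had 34.4 and 24.4 CPM in the knockout and 10.7 and 14 CPM in 2m controls. Cox8a, a small subunit of complex IV, had 312 and 339 against 174 and 247 CPM, and P60 controls were nearer the knockout (228 and 279 CPM). Atp5k and Atp5a1 are set against 2m controls only. Against P60 controls, Ndufb4 and Atp5l were higher in the knockout and Ndufaf1 lower by the size rule (3.3% of members, where 4.41% of all genes were higher and 4.11% lower, 8.52% either way).

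The 2m and P60 controls, alike in genotype and nearly in age, show how far collections differ. By the size rule 4 subunits were higher in 2m controls (Atp5f1, Atp5o, Atp5l and Ndufb4) and 2 members lower (Atp5c1-ps and Sdhaf3), 6.59% of the members against 9.94% of all genes (4.78% higher, 5.16% lower). Ndufb4, an accessory subunit of complex I, had means of 2.89 to 9.63 CPM in the 8 groups from P2 to P60 and of 27.8 to 70.0 CPM in 2m controls, knockout cones and rods. In 2m controls 92 to 98.1% of cells were over 1 CPM, with medians of 34 and 53.6 CPM, where P60 medians were 2.41 and 4.43 CPM. The groups overlapped in single cells. Atp5f1, in the stalk of ATP synthase, had 140 and 117 CPM at P60 and 389 and 401 CPM at 2m. The pseudogene Atp5c1-ps went the other way, with 28.4 and 31.3 CPM against 7.53 and 7.89 CPM, while its parent Atp5c1 had 235 and 260 CPM against 352 and 380 CPM. Age, collection and depth cannot be told apart in this pair.

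On the CPM scale, the median subunit had about the same share in adult rods as in adult cones. The sum was 11736 CPM in rods, 0.89 and 0.90 times that of sup and inf 2m controls, and the median subunit differed by 0.03 and -0.04. Over all genes the median was -1.01 and -0.81. Rod libraries held a median of 3893 genes above 0, against 5824 and 5782.5 in 2m controls, and the part of this in the differences was not tested. After rescaling, 58 of 75 subunits were higher in rods than in both zones and 10 lower, with medians of 0.75 and 0.54 (all genes 37.9% and 51.6%), where 30 were higher and 33 lower before it. Over all members the counts were 37 higher and 40 lower before rescaling, and 66 and 16 after it (all genes 24.5% and 63.2% before). The direction of the set thus depends on the scale. By the size rule 1 member was higher and 12 were lower (14.3% either way), against 7.39% and 28.8% of all genes (36.2% either way). Against P60 controls, 10 members were higher and 12 lower (all genes 9.06% and 31.4%, 40.5% either way). Against knockout cones 2 were higher and 10 lower (all genes 7.56% and 31.1%, 38.7% either way), and 46 were lower in both zones at any size (all genes 63.7%).

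Among the 12, a few subunits and factors were nearly missing from rod libraries. Ndufs3 (chr2:90894627-90904721), a core subunit of complex I, was over 1 CPM in 0 of 29 rods, which allows a share of up to 10.3%, and 4 reads were counted over all rods. The highest rod had 0.0490 CPM. In 2m controls 71.7% (sup; exact 95% interval 57.7 to 83.2%) and 68% (inf) of cells were over 1 CPM (limit and interval cover counting error only, not differences between animals), with medians of 73.5 and 70.7 CPM. Atp5s, a coupling factor of ATP synthase, was likewise over 1 CPM in 0 of 29 rods, with 6 reads in all, against 32.1% and 28% of 2m control cells. For both, even 2m control cells at 0 occurred, so the cells overlapped.

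Uqcrfs1 (chr13:30540312-30545316), the Rieske protein of complex III, ranged from 0 through a median of 0 to 57.7 CPM in rods. In 2m controls it ranged from 0 through 126 to 615 CPM in sup and from 0 through 169 to 703 CPM in inf cones. The difference was -4.04 and -4.42, against P60 controls -4.62 and -4.86, and against knockout cones -4.35 and -4.20. Ndufb2, an accessory subunit of complex I, had a mean of 1.61 CPM in rods and of 59.1 and 72.6 CPM in 2m controls, with 8 of 29 rods over 1 CPM. Ndufs1 had a mean of 68.7 CPM in rods, with 13.8% of cells over 1 CPM, and 424 and 360 CPM in 2m controls.

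The remaining members past the rule were Uqcrc2, Atp5g2, Cox7a2l and the factors Ndufaf4, Ndufaf5, Ndufaf6 and Atp5sl, with differences between -1.03 and -2.68, and Ndufaf2, which was higher (2.55 and 2.74). Rod Ndufaf2 rested on few cells, with a mean of 125 CPM, a median of 0.223 CPM and a highest cell of 1723 CPM. Of the 13, 9 met the rule against P60 controls too, and 8 after rescaling. Detection was lower in rods for most subunits: the median subunit was over 1 CPM in 51.7% of rods and in 84 to 100% of cells in the cone groups. With logs averaged over cells the median subunit was at -1.73 in rods against 2m controls, so the match of the means does not hold for the typical cell.

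**Figure D5:**
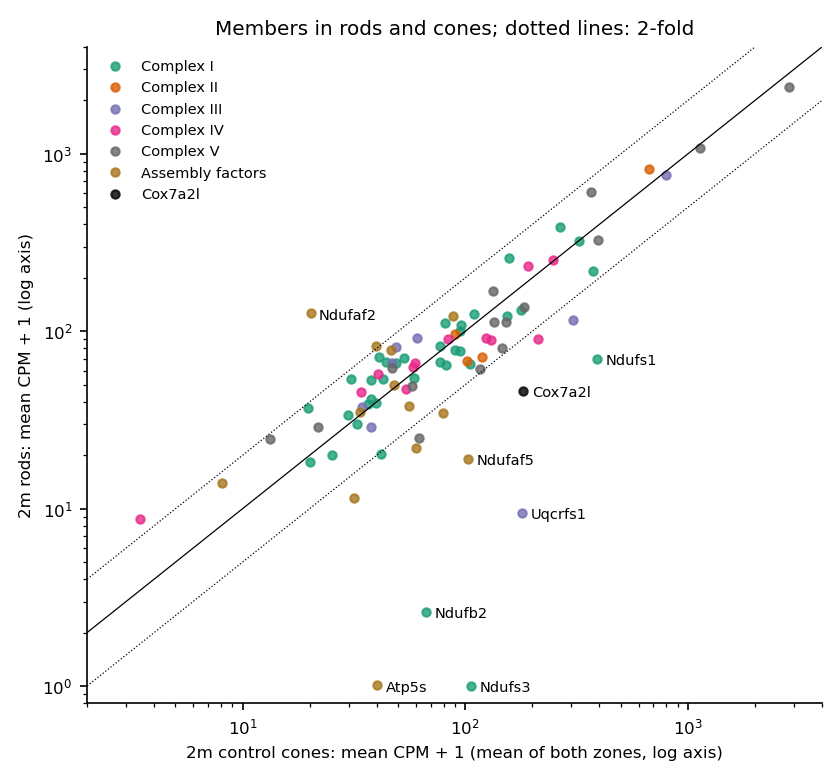
Mean CPM + 1 of each member except the pseudogenes in 2m rods (vertical, log axis) against 2m control cones (horizontal, log axis, mean of both zones), coloured by complex, with the line of equality and dotted 2-fold lines. Most subunits lie between the dotted lines, and Ndufs3, Atp5s, Ndufb2 and Uqcrfs1 lie far below them.

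Within groups, cells differed widely in single subunits and less in the sums. The SD over cells of the summed subunits was 1727 to 3359 CPM in cone groups, on means of 9835 to 16373 CPM. Complexes I and V went together over the cells of a group, with a Spearman rho of 0.09 to 0.62 and a median of 0.34 over the 13 groups, above 0 in all 13. Complexes I and II did so less, with -0.13 to 0.45 and a median of 0.03. Cells share their library and CPM sums to a fixed total, so these values are a description. The summed subunits went with the summed rod markers at a median rho of 0.30 (-0.09 to 0.57) and with depth at a median rho of 0.27 (-0.14 to 0.76).

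Of the 88 companion genes of mitochondrial respiration listed beside the members (other assembly factors, the citric acid cycle, carriers and regulators), 83 were measured. At P8 against P2, 37 of 83 were higher in both zones (44.6%, against 25% of all genes). Their highest age was P8 in both zones for 10 (12%, against 6.04% of all genes). By the size rule 4 were higher: Uqcc3 and Cox10, which help to build complexes III and IV, the ADP/ATP carrier Slc25a5 (144 and 124 to 388 and 394 CPM) and Chchd10. Also 4 were lower: Tfam, which binds mitochondrial DNA (27.5 and 62.1 to 6.66 and 20.2 CPM), and the regulators Gabpa, Yy1 and Pprc1. Either way this was 9.64% of the companion genes, below the 13.4% of all genes (4.42% higher, 8.99% lower). In rods, 5 of 83 were higher and 21 lower than in 2m control cones by the size rule (31.3% either way, against 36.2% of all genes). They included Ppargc1a, a coactivator of mitochondrial genes, with 3.83 CPM in rods and 138 and 169 CPM in cones, and Nrf1, a transcription factor of respiratory genes, with 208 CPM in rods and 25 and 41 CPM in cones.

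Regions bound by the tagged receptor in E18 retina lay within 10 kb of 12 of 91 members (13.2%), against 21.2% of all genes placed on the genome, and within 50 kb of 28 (30.8%, against 39%). Regions of the list named induced from P30 cones lay within 10 kb of 6 members (6.59%, against 17.7%) and those of the list named suppressed within 10 kb of 3 (3.3%, against 7.69%). Gene length was not matched in these shares. Overlaps of a region with the gene itself were not counted over all genes, so those below are given as positions only. A bound region lay inside or over the edge of 4 members: Ndufb11 (chrX:20615711-20616010), Sdhaf4 (chr1:24005496-24005795), Ndufs4 (chr13:114387777-114388076), which also held a suppressed region, and Ndufa5 (chr6:24527373-24527672). At Ndufb11 an induced region (chrX:20615837-20616041) overlapped the bound one. Ndufb11 had sup means of 109 CPM in 2m controls, 84.8 CPM in P60 controls and 64.2 CPM in the knockout. It differed between knockout and 2m controls by -0.75 and -0.30, short of the size rule. In inf cones its knockout mean lay below 2m controls but above P60 controls, so the direction there turned with the control set. An induced region without a bound one lay in Ndufs7 (chr10:80248756-80249925) and Sdhb (chr4:140976739-140977161), which differed between knockout and 2m controls by 0.31 and 0.13 and by -0.07 and -0.21.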

How the data were processed

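Single-cell RNA values were deposited by the authors in CPM, already scaled to each library. The submitters' processing notes name STAR 2.7.3a, bcl2fastq 2 and MACS2 2.2.7.1 with the build GRCm38/mm10. Which tool counted reads, and on which annotation, is not given in the sources used here. The deposited table of bound regions carries a p-value per region, which set no filter here. Members, lists and tests were chosen with earlier results of these data known. Library 03 and library 14 of P60 superior cones (Pearson r 0.996 across genes, next pair 0.467) were counted as 1 cell, which leaves 400 cones and 29 rods.

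Group means of CPM over cells were put on log2(mean + 1). Genes whose mean reached 5 CPM (10136; 90 of 91 members, all but Cox6b2) entered limma 3.58.1 (trend, R 4.3.3) with Benjamini-Hochberg adjustment and a threshold of 0.05, tested on simulated data first. Zone was fitted on 10 group means with collection as a block, age and the change of zone on 5 values. For edgeR 4.0.16 and DESeq2 1.42.0, whole reads were recovered from CPM steps in 425 of 430 libraries (100% of values whole within 0.1 reads). Fold comparisons of single groups used the size rule. Named genes were the core subunits, the isoform families and members past a test or size rule, at most 12 per direction. Values of 1 member are not reported here. A few more members were named after their values were seen (Ndufb9, Atp5sl, Sdhaf2, Atp5j, Ndufa8, Ndufa12, Ndufs4, Ndufa5). Gene positions came from RefSeq (GRCm38.p6), which matched all 91 members by gene ID; sequences were not used here, so no motif was searched in promoters. Alternatives were averaged logs, pseudocounts of 0.1 and 10, median-of-ratios scaling, filters, a 1.5-fold rule, P60 controls, and leaving out collections. The counts of subunits highest at P8 under other settings were added after seeing the data.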

Additional observations from a re-analysis of the deposited data

Results flagged for a closer look

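In the subunits as a set, the superior minus inferior difference had one sign in both early control collections and the other in all later ones. The median over the 75 subunits averaged 0.31 over P2 and P8 and -0.058 over P21, P60 and 2m (log2). In complex I the averages were 0.33 and -0.12. These medians were not tested as such; limma on single genes called 0 members for the change of the zone difference. The later medians are small, and with logs averaged over cells those of P21 and 2m were 0.14 each. The P8 medians stayed between 0.37 and 0.49 under all settings run.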

How the results depend on the processing

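No member followed through the alternatives (those past a size rule, and those named for a test) changed direction. Medians of the subunits did change sign. With averaged logs this held for the knockout and for the zone difference at P21 and 2m. The rod median was negative with averaged logs and positive after rescaling. For zone, 0 members were called in all 16 settings; over all genes DESeq2 called 240, averaged logs 16, and the fit with no replicate block 2. No paired analysis beyond the collection block was possible because cell numbers pair nothing. For P2 and P8 against later ages, 0 members were called except 1 (Sdhd) with averaged logs. Over all genes, where limma called 19, DESeq2 called 339, averaged logs 400, pseudocount 10 48, rescaling 45, edgeR 3, pseudocount 0.1 2, superior cones alone 2 and inferior cones alone 0. Leaving out 1 collection gave 0 (without 2m) to 221 (without P8) genes, with 5 without P2, 11 without P21 and 1 without P60.

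Counts past the size rule moved with the fold and scale, for which the cause was not tested. P8 against P2 (12 members): pseudocount 10, 3; 1.5-fold, 29. P21 against P8 (8): averaged logs, 29; pseudocount 10, 3; rescaled, 3; 1.5-fold, 35; the subunit median was -1.17 with averaged logs. P60 against P21 (1): 1.5-fold, 4; subunit medians of 0.19 with averaged logs, 0.12 with pseudocount 10 and 0.10 rescaled. Knockout (1): averaged logs, 6; pseudocount 0.1, 2; 1.5-fold, 6; mean of both zones, 3; P60 controls, 3; medians of -0.23 with averaged logs, 0.015 rescaled and 0.33 against P60. Rods (13): averaged logs, 63; rescaled, 25; 1.5-fold, 28; P60 controls, 22; medians of -1.73 with averaged logs, 0.65 rescaled and 0.11 against P60.

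With 1 collection per age and no animals named, age, genotype and collection differences carry no replicate error.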
